A study of Homo sapiens with 29 samples.

Results

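The clustered histone H3 genes examined here are the 10 protein-coding genes H3C1, H3C2, H3C3, H3C4, H3C6, H3C7, H3C8, H3C10, H3C11 and H3C12 on chromosome 6, known earlier as HIST1H3A to HIST1H3J. They were chosen by name, as all members of the H3 gene family in that histone cluster whose probes could be named through a RefSeq accession, and they are 10 of the 22439 genes named on the array. They were measured with 11 probes, 2 for H3C10 and 1 for each other gene. RNA came from LHCN-M2 cells, a human skeletal myoblast line immortalised with telomerase and CDK4, transfected with 20 nM of an siRNA against ZNF148, a zinc finger protein that binds GC-rich DNA, or with 20 nM of nontargeting siRNA (siControl). Agilent 1-colour arrays were run for each siRNA after 24 h, 48 h and 96 h in growth media and after 48 h and 96 h in differentiation media. That made 10 groups and 29 arrays, and all groups had 3 arrays but the 96 h control in growth media, which had 2. All groups share the cell line and a transfection, and there was no untransfected group. The labels call the cells subconfluent at 24 h and confluent in all later groups, so that time and cell density cannot be told apart between 24 h and the later times. The cells in differentiation media changed media after transfection, so equal hours in the 2 media may not be equal times since transfection.

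Replication-dependent H3 genes encode the H3 that is built into chromatin as DNA is copied, and their mRNAs are made mainly in S phase. These mRNAs end in a stem-loop, bound by SLBP, in place of a poly(A) tail, and NPAT drives their transcription once cyclin E and CDK2 have phosphorylated it. Myoblasts leave the cell cycle before they fuse into myotubes, and replication-independent H3.3, made by H3-3A and H3-3B, then supplies most new H3. The 10 genes encode the same protein or nearly the same one, and their coding sequences are much alike, so that a probe named for 1 of them may also bind mRNA of another. The probe sequences were not used here, so shared binding was not tested, and neither a gene's level nor its change can be called its alone. The labelling kit primes from poly(A) tails, and which form of each H3 mRNA it copied was not measured.

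The letters before the start sites of 5 of the genes are shown because these genes cover much of the range of patterns below. H3C6 and H3C12, which form another close pair below, are not among them. H3C2 moved most, H3C7 and H3C10 moved like it, H3C3 moved less, and H3C1 moved otherwise. Each sequence is the 250 bases before the start site, written 5′ to 3′ on the strand of the gene, from RefSeq on GRCh38.p14, and capitals mark every match to CCAAT or TATAAA on either strand. The regions are chr6:26020201-26020450 on the plus strand for H3C1, chr6:26032100-26032349 on the minus strand for H3C2, chr6:26045134-26045383 on the plus strand for H3C3, chr6:26250636-26250885 on the minus strand for H3C7 and chr6:27809801-27810050 on the plus strand for H3C10.
H3C1: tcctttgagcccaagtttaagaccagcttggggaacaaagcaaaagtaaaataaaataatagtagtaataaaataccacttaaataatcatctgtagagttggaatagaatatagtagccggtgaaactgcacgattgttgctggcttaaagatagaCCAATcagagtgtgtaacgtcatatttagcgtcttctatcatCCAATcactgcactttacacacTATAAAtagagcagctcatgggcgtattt
H3C2: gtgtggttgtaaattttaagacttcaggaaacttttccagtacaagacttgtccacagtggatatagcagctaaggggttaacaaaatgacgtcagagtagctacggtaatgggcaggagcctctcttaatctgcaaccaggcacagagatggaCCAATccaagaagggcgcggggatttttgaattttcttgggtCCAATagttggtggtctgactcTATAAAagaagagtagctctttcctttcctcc
H3C3: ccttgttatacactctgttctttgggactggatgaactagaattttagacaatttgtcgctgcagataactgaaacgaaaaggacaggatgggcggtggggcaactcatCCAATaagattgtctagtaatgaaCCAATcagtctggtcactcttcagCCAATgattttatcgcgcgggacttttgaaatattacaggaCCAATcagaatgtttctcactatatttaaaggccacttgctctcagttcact
H3C7: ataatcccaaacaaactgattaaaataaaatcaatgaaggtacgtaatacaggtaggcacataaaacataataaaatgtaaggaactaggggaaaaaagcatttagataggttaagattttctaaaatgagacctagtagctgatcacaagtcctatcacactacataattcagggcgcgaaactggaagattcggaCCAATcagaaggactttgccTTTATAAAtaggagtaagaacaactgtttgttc
H3C10: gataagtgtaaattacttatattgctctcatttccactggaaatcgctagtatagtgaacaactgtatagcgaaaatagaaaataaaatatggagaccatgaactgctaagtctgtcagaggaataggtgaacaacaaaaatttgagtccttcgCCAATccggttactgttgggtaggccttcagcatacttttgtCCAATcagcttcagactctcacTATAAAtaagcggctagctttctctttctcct

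RefSeq start windows were at hand for 8 of the 10 genes, in 10 windows. CCAAT, or ATTGG as read from the other strand, stood in 10 of the 10 windows and in 32.0% of the 35116 windows of all genes. TATAAA, or TTTATA, stood in 6 of the 10 windows, in 6 genes, against 10.7% of all windows. CCCTCCC, or GGGAGGG, stood in 0 of the 10 windows and in 24.7% of all windows. H3C2 and H3C10 held CCAAT starting 96 and 54 bases before the start and TATAAA starting 32 bases before it. H3C1 held the same letters in the same order, starting 93, 51 and 29 bases before the start. H3C3 held CCAAT at 4 places and no TATAAA. In H3C7 the 2 overlapping TATAAA matches, 1 on each strand, form a single run. Along the chromosome H3C1, H3C2 and H3C3 followed each other with 2 other protein-coding genes between neighbours, so H3C1 and H3C2 lay close together.

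All 10 genes were well above background on all 29 arrays through their brighter or single probe, with no saturated spot, and the values below are log2 signals of that probe from the authors' quantile-normalised matrix. The targeted gene checked the labels. The ZNF148 probe read lower with ZNF148 siRNA at every time and in both media, with log2 fold changes of -1.53, -2.08 and -2.30 at 24 h, 48 h and 96 h in growth media and -2.34 and -2.74 at 48 h and 96 h in differentiation media, and with no overlap between the groups. Of the 6 myoblast markers 5 or 6 were above background on every array. Of 3 epithelial markers at most 2, and of 2 adipocyte markers at most 1, were above background on any array, of 3 endothelial markers 1 to 3 and of 3 leukocyte markers 1 to 3. CD14, listed as a leukocyte marker, fell with ZNF148 siRNA at 48 h and 96 h in both media. Its log2 fold changes were -3.50 and -4.28 in growth media and -1.12 and -1.24 in differentiation media. PTPRC, which marks all leukocytes, did not differ more than 2-fold in any of the 5 comparisons. By limma's adjusted p PTPRC was higher at 48 h in growth media, by 0.46, and at 48 h and 96 h in differentiation media, by 0.61 and 0.76. Of the endothelial markers, PECAM1 fell at 96 h in growth media and at 48 h and 96 h in differentiation media. Its log2 fold changes there were -2.05, -1.22 and -3.07. VWF rose by 1.19 at 96 h in differentiation media, and CDH5 was not called in any comparison. CDH1, an epithelial cadherin, was above background on no control array. With ZNF148 siRNA it was above background on 1 of 3 arrays at 96 h in growth media and on 2 of 3 at 96 h in differentiation media. In the latter group it was at least 1.58-fold higher than in its control. The adjusted p of 8.61e-11 there is from limma on the signals as read and does not test that bound. The part of any of these markers in the H3 results was not tested. The 5 tested myotube markers (MYOG, CKM and others) rose with ZNF148 siRNA, all 5 of them at 48 h in both media and at 96 h in growth media and 2 of them at 96 h in differentiation media. The log2 of their summed signal was 7.40 to 7.80 with nontargeting and 7.15 to 7.34 with ZNF148 siRNA at 24 h, and it was 9.69 to 18.56 against 19.61 to 19.67 at 48 h in growth media. At 96 h in growth media it was 12.58 to 12.67 against 19.74 to 19.78. In differentiation media it was 12.47 to 14.10 against 19.99 to 20.05 at 48 h and 16.55 to 16.93 against 20.09 to 20.14 at 96 h. The value of 18.56 belongs to replicate 1 of the 48 h control in growth media, which stands apart, so the H3 counts that use it, and the list counts of the 48 h siRNA comparison, are also given without it. What part the change of cell state has in the H3 results was not tested. In these bulk samples, fewer cells in S phase and less H3 mRNA per cell cannot be told apart.

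**Figure D1:**
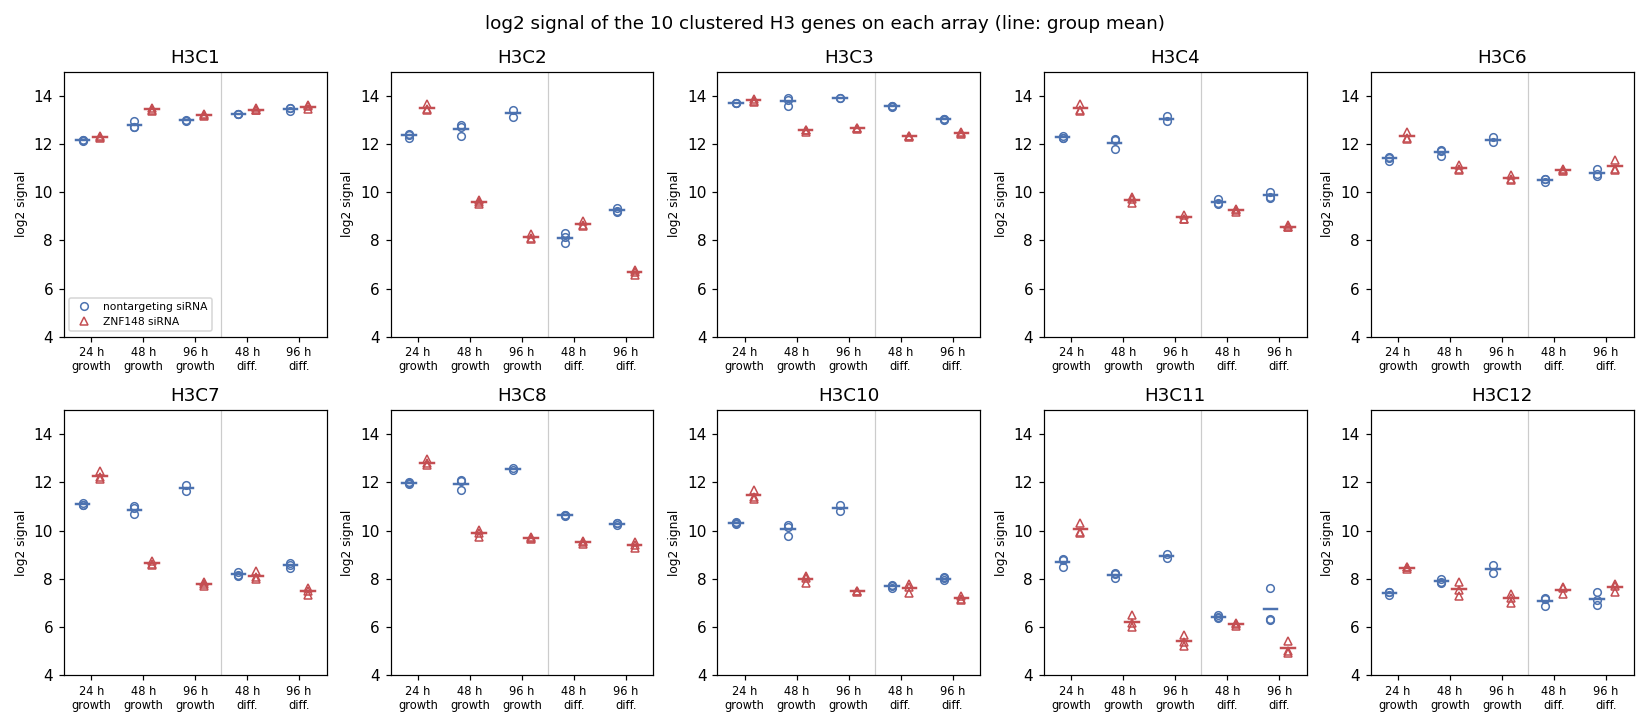
The log2 signal of each H3 gene (y axis, the same range in every panel) on each of the 29 arrays is plotted by time and media (x axis; diff., differentiation media), with circles for nontargeting siRNA, triangles for ZNF148 siRNA and a line at each group mean. H3C2, H3C4, H3C7, H3C8, H3C10 and H3C11 are above their control at 24 h and below it at 48 h and 96 h in growth media, and H3C1 has a group mean above its control in all 5 comparisons.

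At 24 h, 6 of the 10 H3 genes rose with ZNF148 siRNA. A gene was called changed when it passed a Benjamini-Hochberg adjusted p of 0.05 over all tested probes in limma's moderated test and differed more than 2-fold, and 2.44% of the 18432 genes tested were called higher at 24 h. The median over the 10 genes was 1.099 on the log2 scale, against -0.000942 over all genes. H3C2 read 12.39, 12.42 and 12.27 with nontargeting siRNA and 13.40, 13.44 and 13.68 with ZNF148 siRNA, a difference of 1.15 (SE 0.12, adjusted p = 4.12e-07). All 3 ZNF148 arrays were above all 3 controls, and the same held for each of the 10 genes, against 27.7% of all genes tested with every ZNF148 array above every control. H3C11 read 8.76, 8.82 and 8.50 against 9.91, 9.94 and 10.32, and its rise of 1.36 (SE 0.24, adjusted p = 0.00021) was the largest point estimate of the 10. H3C4 rose by 1.19, H3C7 by 1.18, H3C10 by 1.17 and H3C12 by 1.05. With normexp background correction H3C12 was at 0.81, within 2-fold. H3C6 and H3C8 passed the adjusted p but not the 2-fold limit, at 0.92 (SE 0.11, adjusted p = 2.05e-06) and 0.85 (SE 0.09, adjusted p = 5.78e-07). For H3C1 the difference was 0.13 (SE 0.06, adjusted p = 0.167) and for H3C3 0.12 (SE 0.06, adjusted p = 0.22), and neither passed the test. Array 3 of ZNF148 siRNA was the highest of its group for every one of the 10 genes. All 24 h arrays lay on 1 slide, so this comparison has no slide difference within it.

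At 48 h in growth media the direction had turned for most of the family, and 7 of the 10 genes fell with ZNF148 siRNA, against 12.2% of all genes tested called lower. The median over the 10 genes was -1.99, and -0.05 over all genes. H3C2 read 12.32, 12.81 and 12.70 with nontargeting siRNA and 9.68, 9.60 and 9.53 with ZNF148 siRNA, which was 8.04-fold lower, with a log2 fold change of -3.01 (SE 0.12, adjusted p = 4.98e-14). The groups did not overlap, and the lowest control was replicate 1, the array that stands apart in the myotube markers. H3C4 read 11.81, 12.16 and 12.21 against 9.79, 9.73 and 9.55 and fell by 2.37. The other genes that fell were H3C7, H3C10, H3C8, H3C11 and H3C3, with log2 fold changes of -2.23, -2.07, -2.05, -1.94 and -1.20. H3C6 stayed within 2-fold at -0.65 (SE 0.11, adjusted p = 3.85e-05), and H3C12 did not pass at -0.32 (SE 0.15, adjusted p = 0.0885), with overlapping groups. H3C1 read 12.96, 12.70 and 12.72 with nontargeting siRNA and 13.43, 13.50 and 13.39 with ZNF148 siRNA, and it was higher by 0.65 (SE 0.06, adjusted p = 2.83e-08), under the 2-fold limit. Its 3 ZNF148 arrays were all above its controls while 9 other members had lower means. Without replicate 1 of the control, 7 genes again fell, with a log2 fold change of -3.15 for H3C2 and a median over the 10 of -2.09. Within each of the 3 slides, with 1 array of each siRNA, the median was -1.60, -2.28 and -2.05, and 9 genes were lower and 1 higher on every slide.

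At 96 h in growth media 9 of the 10 genes fell, against 12.4% of all genes tested called lower, with a median of -3.16 over the 10. H3C2 read 13.15 and 13.42 in the 2 controls and 8.08, 8.27 and 8.09 with ZNF148 siRNA, which was 35.2-fold lower, with a log2 fold change of -5.14 (SE 0.14, adjusted p = 2.08e-16). H3C4 read 12.94 and 13.17 against 8.91, 9.06 and 8.90 and fell by 4.10. H3C7 read 11.62 and 11.87 against 7.71, 7.76 and 7.87 and fell by 3.97. In these 3 genes, the largest falls of the 10, every ZNF148 array was far below both controls. H3C11, H3C10 and H3C8 also fell, with log2 fold changes of -3.54, -3.46 and -2.87. For H3C6, H3C3 and H3C12, which had the smallest decreases at 48 h, they were -1.58, -1.26 and -1.23. H3C1 read 13.01 and 12.98 against 13.15, 13.24 and 13.19, which was 0.20 (SE 0.07, adjusted p = 0.0242) and so higher by less than 2-fold. On the slide that held both siRNAs, with 1 ZNF148 array and 2 controls, the median was -3.14, with 9 genes lower and 1 higher.

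**Figure D2:**
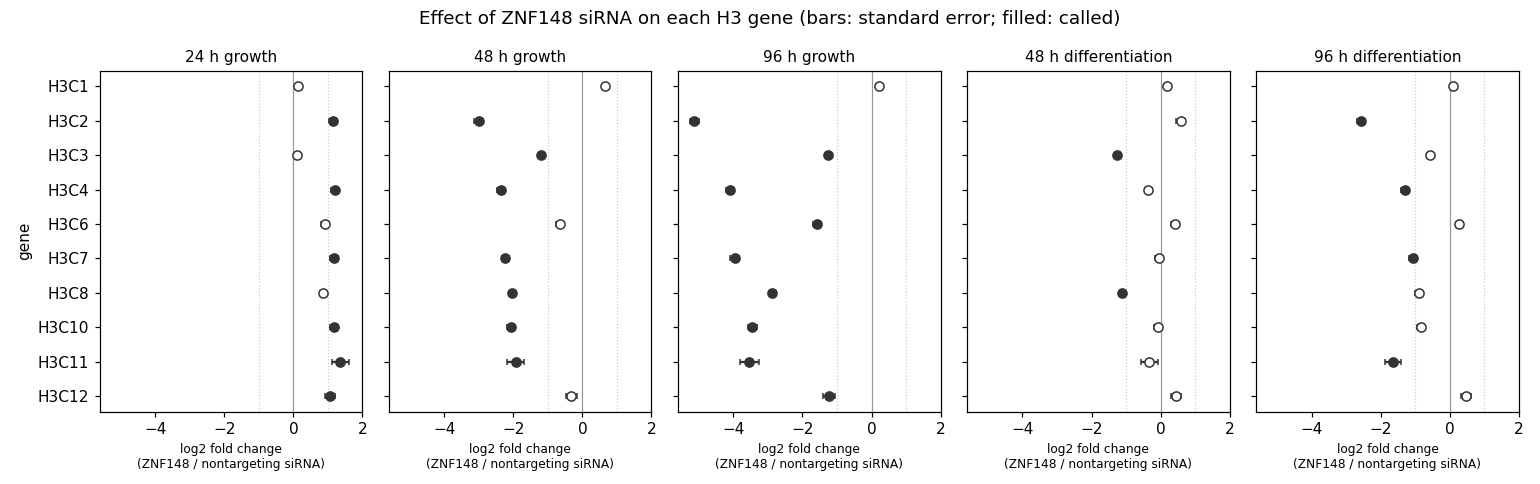
The log2 fold change of ZNF148 over nontargeting siRNA (x axis) is plotted for each H3 gene (y axis) in 5 comparisons, with bars for the standard error, filled points for genes that were called and dotted lines at 2-fold. Points lie right of 0 at 24 h and mostly far left of it at 96 h in growth media, and they spread around 0 at 48 h in differentiation media.

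In differentiation media at 48 h only 2 of the 10 genes fell, H3C3 and H3C8, against 17.2% of all genes tested called lower, a share close to that of the members. H3C3 read 13.58, 13.56 and 13.59 with nontargeting siRNA and 12.32, 12.32 and 12.34 with ZNF148 siRNA, a difference of -1.25 (SE 0.06, adjusted p = 3.32e-13). The 3 arrays of each siRNA lay close together, and the fall was far larger than their spread. H3C8 read 10.63, 10.65 and 10.61 against 9.54, 9.46 and 9.57 and fell by 1.11. H3C2, the gene with the largest fall in growth media, read 8.32, 8.14 and 7.88 with nontargeting and 8.80, 8.66 and 8.62 with ZNF148 siRNA, and was higher by 0.58 (SE 0.12, adjusted p = 0.00032), within 2-fold. By adjusted p alone 4 genes were higher (H3C1, H3C2, H3C6 and H3C12) and 3 lower (H3C3, H3C4 and H3C8). No share of all genes is given for that looser threshold, so these counts cannot be set against one. H3C7, H3C10 and H3C11 did not pass, at -0.05 (95% interval -0.28 to 0.18), -0.07 (-0.32 to 0.17) and -0.32 (-0.83 to 0.18). The median over the 10 was -0.06. Within the 3 slides it was -0.01, -0.21 and 0.03. With scaling to the 75th percentile H3C3 had a log2 fold change of -0.97, under the 2-fold limit, which left 1 gene called.

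At 96 h in differentiation media 4 of the 10 genes fell, H3C2, H3C4, H3C7 and H3C11, against 12.8% of all genes tested called lower, and the median over the 10 was -0.86. H3C2 read 9.22, 9.33 and 9.20 against 6.79, 6.56 and 6.70, a difference of -2.57 (SE 0.12, adjusted p = 3.31e-13). The ZNF148 arrays here held the lowest H3C2 values of the series. H3C11 read 7.61, 6.28 and 6.34 with nontargeting and 4.99, 4.91 and 5.42 with ZNF148 siRNA and fell by 1.64. Its control replicate 1 lay more than 1 log2 unit above the other 2, and with the methods' t-test after Benjamini-Hochberg adjustment the gene did not pass, at an adjusted p of 0.0573. H3C4 fell by 1.30 and H3C7 fell by 1.07. Without replicate 2 of ZNF148 siRNA the log2 fold change of H3C7 was -0.99, just within 2-fold, which left 3 genes called. With normexp background correction H3C7 and H3C11 were at -0.84 and -0.76, which left 2. H3C8, H3C10 and H3C3 passed the adjusted p within 2-fold, at -0.90, -0.82 and -0.58. H3C6 and H3C12 were higher by 0.29 (SE 0.11, adjusted p = 0.0373) and 0.48 (SE 0.15, adjusted p = 0.00996) with overlapping groups, and H3C1 did not pass at 0.10 (SE 0.06, adjusted p = 0.212).

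The change of effect from one time or media to another was tested as a difference between 2 siRNA effects in the same fit. From 24 h to 48 h in growth media the effect became lower for 9 genes, against 10.3% of all genes tested, with differences down to -4.16 for H3C2. The exception was H3C1, at 0.52 (SE 0.09, adjusted p = 9.7e-05), within 2-fold. From 24 h to 96 h it became lower for 9 genes, against 11.1% of all genes, with differences of -6.28 for H3C2, -5.29 for H3C4 and -5.15 for H3C7. H3C1 did not pass there, at 0.07 (SE 0.10, adjusted p = 0.622). These 24 h arrays were on another slide and scan than the later ones, but each effect is a difference within its own scan. They also came from subconfluent cells and the later ones from confluent cells, so a change of effect with time and one with cell density cannot be told apart. Without replicate 1 of the 48 h control, 9 genes again became lower from 24 h to 48 h, with a median difference of -3.20. From 48 h to 96 h the effect became lower for 5 genes, H3C2, H3C4, H3C7, H3C10 and H3C11, against 1.89% of all genes. H3C3 did not pass over that step, at -0.05 with a 95% interval of -0.25 to 0.14. Without the same control array 5 genes again became lower from 48 h to 96 h, with a median of -1.05. These comparisons share arrays, and they are not independent.

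The effect of ZNF148 siRNA was less negative in differentiation than in growth media for 6 genes at 48 h, against 8.07% of all genes tested in that direction, and for 8 genes at 96 h, against 5.5%. For H3C2 the differences were 3.59 (SE 0.17, adjusted p = 1.9e-12) at 48 h and 2.57 (SE 0.18, adjusted p = 2.09e-09) at 96 h. For H3C4 they were 2.01 and 2.81, and for H3C7 2.18 and 2.89. H3C3 did not pass at 48 h, with a difference of -0.04 (SE 0.09, adjusted p = 0.788) and a 95% interval of -0.23 to 0.14. Without replicate 1 of nontargeting siRNA at 48 h in growth media, 7 genes passed at 48 h, with a median difference of 1.41 against 1.34 with it.

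In cells with nontargeting siRNA most H3 genes were lower in differentiation than in growth media. At 48 h 7 of the 10 were lower than in growth media, against 8.17% of all genes tested, and at 96 h 8 of the 10, against 8.27%. The median over the 10 was -1.52 and -2.23. H3C2 fell by 4.50 at 48 h and fell by 4.03 at 96 h, and its control values in differentiation media, given above, were all lower than any in growth media. The log2 fold changes at 48 h and 96 h were -2.68 and -3.20 for H3C7, -2.37 and -2.94 for H3C10, and -2.46 and -3.19 for H3C4. H3C3 stayed within 2-fold at both times, at -0.20 and -0.89. H3C1 was higher in differentiation media by 0.47 (SE 0.06, adjusted p = 3.35e-06) at 48 h and 0.46 (SE 0.07, adjusted p = 2.43e-05) at 96 h, again within 2-fold. Without the control array that stands apart, 7 genes fell at 48 h with a median of -1.61.

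With ZNF148 siRNA the same change of media gave 0 called genes at 48 h, against 2.84% of all genes tested called lower, and 1 at 96 h, against 4.96%. By limma's adjusted p alone 6 genes were lower at 48 h and 4 lower and 3 higher at 96 h, and at an unadjusted p of 0.05 the test passed 6 and 9. The shares of all genes above apply both limits. No share is given for these looser thresholds, so whether these counts exceed it cannot be read here. The gene called at 96 h was H3C2, which fell by 1.46. At 48 h the log2 fold change of H3C2 was -0.91 (SE 0.12, adjusted p = 1.76e-05), within 2-fold. The median over the 10 was -0.30 and -0.29. That the 2 siRNAs differed in this response is the same test as the difference of siRNA effects between media given above.

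**Figure D3:**
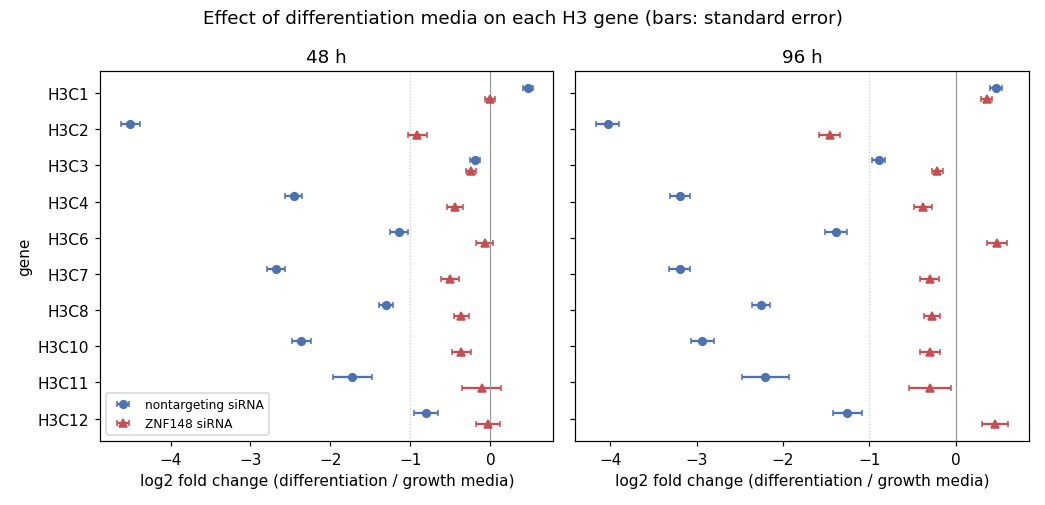
The log2 fold change of differentiation over growth media (x axis) at 48 h and 96 h is plotted for each H3 gene (y axis), with circles for nontargeting siRNA, triangles for ZNF148 siRNA, bars for the standard error and a dotted line at a 2-fold decrease. The circles reach from 0.47 for H3C1 to -4.50 for H3C2 at 48 h, and the triangles lie closer to 0 for all genes but H3C3 at 48 h.

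In growth media with nontargeting siRNA no H3 gene passed both limits from one time to the next. From 24 h to 48 h limma called 0 of the 10, against 5.8% of all genes tested called higher, with 5 at an unadjusted p of 0.05 and 2 by adjusted p alone. These 2 were H3C1, higher by 0.63 (SE 0.06, adjusted p = 1.84e-07), and H3C12, higher by 0.49 (SE 0.15, adjusted p = 0.0125). Time, cell density, slide and scan cannot be told apart in that step. From 48 h to 96 h limma called 0 of the 10, against 0.412% of all genes called higher, with 10 at an unadjusted p of 0.05 and 6 by adjusted p alone. In both steps the share of all genes applies both limits, and no share is given for the looser thresholds. All 10 means were higher at 96 h, by a median of 0.64, and H3C4 came closest to the limit at 0.996 (SE 0.12, adjusted p = 4.04e-05). Leaving out replicate 1 of the 96 h control gave 2 called genes, leaving out replicate 2 or replicate 3 of the 48 h control gave 1, and scaling to the 75th percentile gave 1. Without replicate 1 of the 48 h control both steps again gave 0 called genes, with medians over the 10 of 0.13 from 24 h to 48 h, against 0.019 with it, and of 0.51 from 48 h to 96 h.

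The genes fell into unlike patterns across the 10 group means, which all genes share. Over the 45 pairs of genes Pearson's r ran from -0.85 to 1.00 with a median of 0.87, as a description over 10 points that share arrays. H3C7 and H3C10 were the most alike pair at 0.9986, and H3C2, H3C4, H3C7, H3C8, H3C10 and H3C11 all correlated with each other at 0.9441 or more. H3C6 and H3C12 formed another close pair at 0.9514. H3C3 was nearest to H3C8, at 0.939. H3C1 correlated negatively with all 9 others, from -0.4379 with H3C12 to -0.8484 with H3C11. Its log2 signal ranged over only 12.13 to 13.63 across the 29 arrays, with the lowest group at 24 h with nontargeting siRNA and the highest in differentiation media at 96 h with ZNF148 siRNA, and the neighbouring group, nontargeting siRNA at the same time and media, did not pass the test against that highest one. H3C2 ranged over 6.56 to 13.68 and H3C3 over 12.32 to 13.93.

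**Figure D4:**
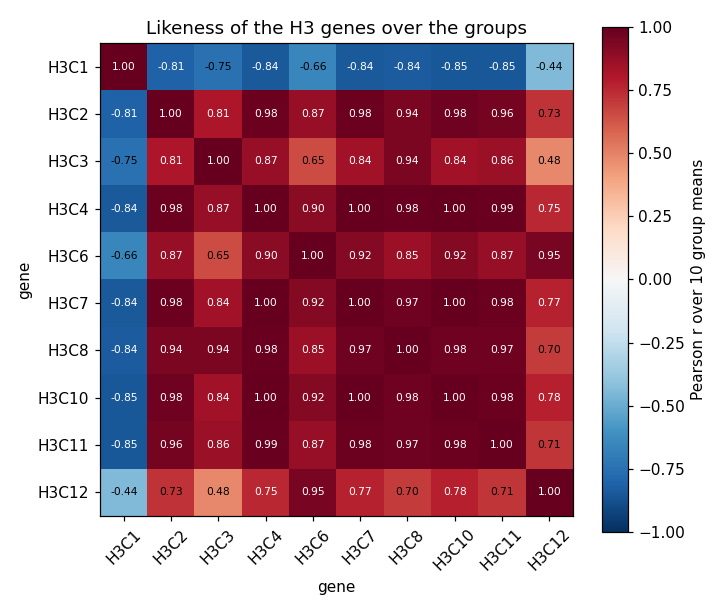
Pearson's r over the 10 group means is shown for each pair of H3 genes (both axes), coloured from blue at -1 to red at 1. H3C1 is negative against every other gene, and H3C3 and H3C12 have paler cells than the block around H3C7 and H3C10.

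H3C10 was the gene with 2 probes. The dimmer probe was above background on 21 of 29 arrays. It read 6.38, 6.57 and 6.45 against 7.43, 7.40 and 7.90 at 24 h, a rise of 1.11 beside 1.17 for the brighter probe. At 48 h in growth media it was not above background on any ZNF148 array and was at least 4.15-fold lower there. This bound sets the control mean against a mean over the ZNF148 arrays. Each array enters with its lowest signal among probes well above background, or with the probe's own value where that was higher. The adjusted p of 1.42e-08 is from limma on the signals as read and does not test the bound. At 96 h the log2 fold changes were -2.75 and -3.46. At 48 h in differentiation media only 1 of 3 ZNF148 arrays measured the dimmer probe above background. With the other 2 set at their floor it was at least 1.45-fold lower. On the signals as read its log2 fold change was -1.48 (limma, adjusted p = 0.00015), beside -0.07 (SE 0.12, adjusted p = 0.664) for the brighter probe. At 96 h in differentiation media the dimmer probe was above background on 0 of 3 ZNF148 arrays and was at least 1.09-fold lower. Its 3 controls, at 4.55 to 4.61, lay below the floors of ZNF148 replicates 2 and 3, at 4.630 and 4.633. The bound therefore rests on replicate 1 alone, with a floor of 4.09.

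Genes outside the histones whose group means were most like the mean of the 10 H3 genes were FBXO5, an inhibitor of the anaphase-promoting complex (r = 0.989), USP1, a deubiquitinase of DNA repair (0.988), RMI2 (0.985), WDHD1, a replisome protein (0.984), and CHAF1A, a subunit of the chaperone that puts new H3 and H4 on copied DNA (0.984), among 15128 genes over 10 groups. CHAF1A read 11.999 ± 0.012 (SD, n = 3) with nontargeting and 12.64 ± 0.02 (n = 3) with ZNF148 siRNA at 24 h, and 11.80 ± 0.34 (n = 3) against 9.32 ± 0.07 (n = 3) at 48 h in growth media. Among the other clustered histone genes H4C3 was most like it, at 0.993.

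For the lists that follow, the share of all genes tested that was called higher with ZNF148 siRNA was 2.44% at 24 h, 11.7% at 48 h and 12.3% at 96 h in growth media, and 15% at 48 h and 10.4% at 96 h in differentiation media. The share called lower was 3.03%, 12.2% and 12.4% in growth media, and 17.2% and 12.8% in differentiation media.

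The genes of DNA replication (MCM, CDC6, PCNA, ribonucleotide reductase and others) were read beside the H3 genes. Of the 33 tested, 6 rose at 24 h, 28 fell at 48 h and 29 fell at 96 h in growth media with ZNF148 siRNA, with medians of 0.78, -1.97 and -2.22. In differentiation media 4 rose and 7 fell at 48 h, and 2 rose and 13 fell at 96 h, with medians of -0.36 and -0.66. The 48 h count was again 28 without replicate 1 of its control. With nontargeting siRNA 29 of the 33 were lower in differentiation than in growth media at 48 h, or 30 without that array, and 29 at 96 h. The list was chosen with earlier results known, and its part in the H3 results was not tested.

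**Figure D5:**
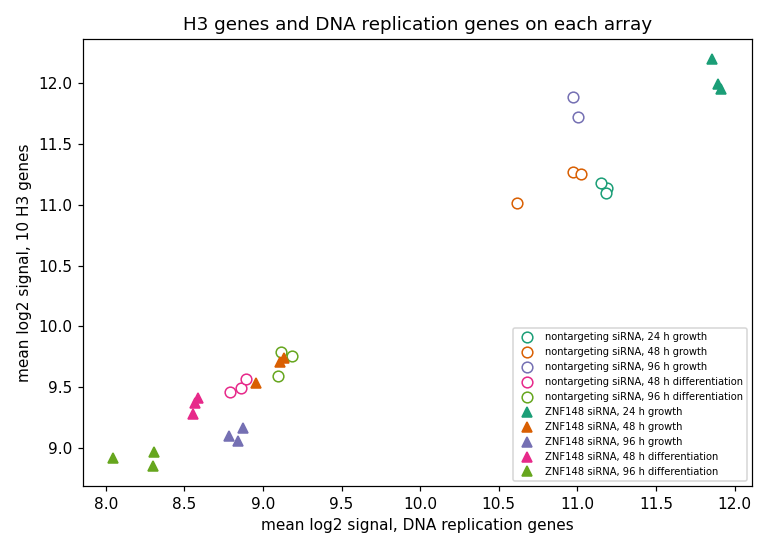
The mean log2 signal of the 10 H3 genes (y axis) is plotted against that of the 33 DNA replication genes (x axis) for each of the 29 arrays, coloured by time and media, open for nontargeting and filled for ZNF148 siRNA. The 3 arrays of ZNF148 siRNA at 24 h lie highest on both axes. The arrays in differentiation media lie low on both, and so do those of ZNF148 siRNA at 48 h and 96 h in growth media. The 2 controls at 96 h in growth media have more H3 signal than the 48 h controls at a like replication level.

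The factors that make histone mRNA were also read. NPAT, the activator of histone transcription, fell at 48 h and 96 h in both media, with log2 fold changes of -1.76 and -2.004 in growth media and -1.69 and -1.26 in differentiation media, the last with 2 of 3 ZNF148 arrays above background, and did not pass at 24 h, at -0.18. SLBP, the stem-loop binding protein, was at 0.51 (SE 0.11, adjusted p = 0.00155) at 24 h and -0.95 (SE 0.11, adjusted p = 3.56e-07) at 48 h, both within 2-fold, and fell by 1.50 at 96 h in growth media. In differentiation media SLBP was at -0.90 at 48 h, within 2-fold, and fell with a log2 fold change of -1.004 at 96 h. CCNE2, a cyclin E, fell at 48 h and 96 h in growth media, with log2 fold changes of -3.41 and -3.82. At 96 h in differentiation media CCNE2 was above background on 0 of 3 ZNF148 arrays. It was at least 2.21-fold lower there (limma on the signals as read, adjusted p = 2.82e-07). HINFP, a zinc finger regulator of histone H4 genes, was within 2-fold in all 5 comparisons. Of the 11 factors 1 rose at 24 h, 5 fell at 48 h and 6 at 96 h in growth media, and 1 and 5 fell at 48 h and 96 h in differentiation media, where the 1 of 11 at 48 h is under the share of all genes called lower. Of the 13 tested H3 chaperone genes, which carry H3 and place it on DNA, 1 rose at 24 h, 5 fell at 48 h and 5 at 96 h in growth media, and 2 and 4 fell at 48 h and 96 h in differentiation media. The 2 of 13 at 48 h is near the share of all genes. At 48 h in growth media 6 of the 11 factors and 6 of the 13 chaperone genes fell when replicate 1 of the control was left out.

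Of the other H3 genes 6 of 8 had a tested probe, and H3C14 and H3-3B did not. H3C15, outside the chromosome 6 cluster, was also higher first and lower later, with log2 fold changes of 1.22, -2.69 and -4.67 at 24 h, 48 h and 96 h in growth media, and it rose by 3.06 at 48 h and fell by 2.85 at 96 h in differentiation media. H3C13 fell at 48 h and 96 h in growth media and at 48 h in differentiation media, with log2 fold changes of -1.53, -1.95 and -1.03, and did not reach 2-fold at 24 h or at 96 h in differentiation media. H3-3A, which encodes the replication-independent H3.3, moved within 2-fold in all 5 comparisons, from 0.07 to 0.43, and was higher by adjusted p at 48 h in both media. The probe named for H3-5, the gene of the variant H3.5, fell at 48 h and 96 h in growth media and at 48 h in differentiation media. Its log2 fold changes there were -1.17, -1.18 and -1.16. Which H3 mRNAs that probe binds was not tested, so its level and change cannot be called those of H3-5 alone. CENPA, the centromere H3, fell at 48 h and 96 h in growth media, with log2 fold changes of -3.59 and -5.46, the second with 2 of 3 ZNF148 arrays above background, and did not pass at 24 h, at 0.80. At 96 h in differentiation media CENPA was above background on 0 of 3 ZNF148 arrays. It was at least 3.50-fold lower there (limma on the signals as read, adjusted p = 1.48e-07). The probe named for H3-4 stayed within 2-fold in all 5 comparisons. By limma's adjusted p it was lower at 48 h and 96 h in both media. Its log2 fold changes there were -0.64 and -0.79 in growth media and -0.75 and -0.26 in differentiation media. Of these 6 genes 4 fell at 48 h in growth media with or without replicate 1 of the control.

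The other histone families of the same cluster were counted in the same way. Clustered H2A genes rose in 5 of 12 at 24 h and fell in 11 of 12 at 48 h and 8 of 12 at 96 h in growth media, while 0 of 12 were called at 48 h and 3 of 12 fell at 96 h in differentiation media, with medians of 0.84, -1.82, -1.80, -0.16 and 0.14. Clustered H4 genes rose in 1 of 11 at 24 h and fell in 10 of 11 and 8 of 11 at 48 h and 96 h in growth media and in 3 of 11 and 2 of 11 in differentiation media, with medians of 0.83, -1.53, -1.70, -0.81 and -0.66. Clustered H2B genes had 0 of 13 called at 24 h, 1 of 13 higher and 1 lower at 48 h and 2 higher and 1 lower at 96 h in growth media, and in differentiation media 7 of 13 rose at 48 h and 11 of 13 at 96 h, with medians of 0.55, 0.29, 0.57, 1.03 and 1.30. Clustered H1 genes had 2 of 6 higher and 1 lower at 24 h, 3 of 6 lower at 48 h and 2 higher and 3 lower at 96 h in growth media, and in differentiation media 4 of 6 rose at 48 h and 2 rose and 1 fell at 96 h, with medians of 0.70, -1.37, -1.71, 1.19 and 0.78. Some of these H1 calls lay near the floor. The gene lower at 24 h was H1-6, above background on 0 arrays of either siRNA. H1-6 was also called higher at 96 h in growth media and at 48 h in differentiation media. There 2 of 3 and 1 of 3 ZNF148 arrays and no control were above background. H1-1, called lower at 48 h and 96 h in growth media, was above background on 0 of 3 ZNF148 arrays at both times. Without replicate 1 of the 48 h control the counts at 48 h in growth media were the same for H2A, H2B and H4, and 4 of 6 H1 genes fell. Probes of one family may share targets, and no test of the difference between families was run.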

How the data were processed

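Total RNA of 29 LHCN-M2 samples in 10 groups was labelled with Cy3 and hybridised to Agilent arrays of 62976 spots, 2075 of them controls. The authors extracted spots with Agilent Feature Extraction (10.7.3.1 in the labels and file headers); the deposited intensity values are background-subtracted linear signals. The deposited log2 matrix was quantile-normalised by the authors, has 1 value per probe and array, and holds 140 control probes. All 29 matrix columns had their own array as best match (Spearman's rho at least 0.99998 across probes). Precision is limited by how many arrays a group has. Between 41.6 and 56.5% of probes were well above background on an array. Of 58201 probes, 31104 were named through RefSeq accessions in 22439 genes.

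The test took the 38839 probes that 2 or more arrays read well above background, and used limma 3.58.1 in R 4.3.3 (lmFit, eBayes) in 1 fit of 10 group means; a gene was given by its tested probe of highest mean. The limits were an adjusted p of 0.05 over all tested probes and 2-fold. All tests were two-sided. The members and lists were chosen with earlier results of these data known. The labels call the replicates biological but do not name separate cultures, so p-values measure only the spread between these samples, which may be technical. The slide of each array was read as a batch. The fit was checked on simulated data. Named genes were all members, ZNF148, and fixed lists (other H3, clustered H1, H2A, H2B and H4, histone mRNA factors, chaperones, DNA replication, cell type markers). RefSeq promoter windows were searched for 3 short motifs. Alternatives changed the normalisation, background correction, filter, variance model, array weights, blocks, probe summary and threshold, ran the t-test of the methods, and left out each array in turn. The list counts without replicate 1 of the 48 h control in growth media were added after seeing the data.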

Additional observations from a re-analysis of the deposited data

Results flagged for a closer look

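The effect of ZNF148 siRNA on the H3 genes differed between times and between media, by the test of the difference itself. From 24 h to 48 h in growth media it became lower for 9 genes, and from 24 h to 96 h for 9 genes. From 48 h to 96 h in growth media it became lower for 5 genes. Between media it was less negative in differentiation than in growth media for 6 genes at 48 h and for 8 genes at 96 h. H3C1 was not among the genes called in any of these 5 differences. Groups of 2 or 3 arrays were too small to test single arrays for standing apart.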

How the results depend on the processing

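Of the counts of H3 genes called under the alternatives, 232 stayed within 1.5 times of the reported count in the same direction, 11 moved further and 1 reversed. Without the 2-fold limit, 7 genes passed at 48 h in differentiation media, with 4 higher and 3 lower and so more higher than lower, and 9 at 96 h in differentiation media, 9 for the change of effect from 48 h to 96 h in growth media, 6 and 7 for media with ZNF148 siRNA at 48 h and 96 h, and 2 and 6 for nontargeting siRNA from 24 h to 48 h and from 48 h to 96 h. No share of all genes is given beside the counts under the alternatives in this section. With scaling to the 75th percentile 1 gene was called at 48 h in differentiation media and 1 from 48 h to 96 h with nontargeting siRNA. With normexp background correction 2 were called at 96 h in differentiation media and 0 for media with ZNF148 siRNA at 96 h, and the cause was not tested. Leaving out each array in turn gave 0 to 2 genes for nontargeting siRNA from 48 h to 96 h (2 without replicate 1 at 96 h, 1 without replicate 2 or replicate 3 at 48 h), 3 to 4 at 96 h in differentiation media, 5 to 7 for the change of effect from 48 h to 96 h, 6 to 7 for the difference between media at 48 h, and the reported count in the other 12 results. The effects of H3C7 and H3C10 at 48 h in differentiation media, which did not pass, ran from -0.153 to 0.0252 and from -0.160 to 0.0249 when each array was left out, and both turned positive without replicate 2 of ZNF148 siRNA. Scaling to the 75th percentile shifted the median of all tested probes at 96 h in differentiation media by 0.14 on the log2 scale. The median of the H3 genes there was -0.83 under that scaling and -0.86 as reported. By the methods' t-test at its own unadjusted threshold the counts were 6, 7, 9, 2 and 4 in the 5 siRNA comparisons, and 6, 7, 9, 2 and 3 after Benjamini-Hochberg adjustment. The array weights were taken from a fit that stopped before full convergence.

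With the replicate number as a block, 6, 7 and 9 genes were called at 24 h, 48 h and 96 h in growth media and 2 and 4 at 48 h and 96 h in differentiation media, and the block changed no other call count. The samples share only a number, and for ZNF148 siRNA at 48 h in growth media the titles and descriptions of the arrays number them differently (the titles were used): the deviations of same-numbered arrays from their group means correlated at -0.16 to 0.12. With the slide as a block the counts were the same in the comparisons where it was fitted, which leaves out 24 h, where all arrays share 1 slide, and the step from 24 h to 48 h.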
